A study of Bos taurus with 8 samples.

Results

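LAP, TAP, LTF, S100A8 and S100A9 encode secreted or released antimicrobial proteins, and their RNA was followed in cells aspirated from ovarian follicles of dairy cows. These 5 genes, of 15229 genes named on the array, were picked by symbol, and they were chosen because earlier results of the same data had shown them lower in one group. The comparison between the groups therefore describes them and tests nothing about them. Each gene was read by 1 probe (LAP by EMBV3_13712, TAP by EMBV3_24804, LTF by EMBV3_13371, S100A8 by EMBV3_10015, S100A9 by EMBV3_24734), and all 5 probes were among the 32448 features tested, of which 14084 were named genes. The 5 probes gave signal above the array background on 8 of 8 arrays in both groups.

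The study asked how gene expression in granulosa cells, the steroid-producing cells that line a follicle, differs with the depth of the energy deficit after calving. All animals were Holstein cows sampled at day 60 postpartum, 42 h after they had received prostaglandin (given as PG in the labels) once, and cells were aspirated from follicles of over 9 mm. Group BHBH comprised 12 cows with severe negative energy balance, called by high blood beta-hydroxybutyrate, a ketone body made when fat is burned for energy; group BHBL comprised 12 cows with mild negative energy balance. RNA of 3 cows was combined in each of 4 pools per group and amplified linearly, so a value belongs to a pool and the spread between single cows was not measured.

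Each BHBH pool was hybridised together with a BHBL pool, on 2 arrays with exchanged dyes. The number of an array's area on its slide was taken as the number of this pool pair. On slide 289 the Cy5 dye was on BHBH, and on slide 288 it was on BHBL, so that slide and dye orientation cannot be told apart but enter both ways into every pair mean. Median probe intensity ranged over the arrays from 154 to 252 in Cy5 and from 249 to 427 in Cy3, and with 8 arrays the precision of each value is limited by their number. Of 20 granulosa cell markers, 18 were above background on all arrays in both groups. So were 15 of 15 macrophage markers, 13 of 15 lymphocyte markers and 10 of 11 theca and stroma markers. Among neutrophil markers 11 of 19 were, among simple epithelial markers 11 of 19, and 19198 of all 32448 features. Detection alone therefore does not tell which cell types made up the samples.

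LAP and TAP, the lingual and tracheal antimicrobial peptides of cattle, are beta-defensins, small cationic peptides that epithelial cells release and that damage microbial membranes. S100A8 and S100A9 bind calcium and join as calprotectin, which withholds zinc and manganese from microbes and fills the cytosol of neutrophils, and which squamous epithelium makes under stress. LTF encodes lactoferrin, an iron-binding protein stored in the secondary granules of neutrophils and secreted by glands and mucosal epithelium. In the RefSeq gene table for the assembly ARS-UCD2.0, S100A12 was the 1 gene between S100A8 and S100A9, while LAP and TAP lay on the same chromosome with 14 gene records between them.

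The values that led to the choice of the genes were these. LAP averaged 7.97-fold lower in BHBH than in BHBL, TAP 5.62-fold, LTF 4.64-fold, S100A8 5.83-fold and S100A9 5.22-fold. All 5 were lower in BHBH in each of the 4 pool pairs and on 8 of 8 arrays, a pattern held by 1.91% of all features tested. The size of the difference varied between pairs far more than between the arrays of a pair. Levels below are log2 normalised intensities of a pool, averaged over its 2 arrays, and ratios are log2 of BHBH over BHBL. In these bulk samples, fewer cells of a type and less RNA per cell cannot be told apart.

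LAP, the lingual antimicrobial peptide, had levels of 10.63, 11.65, 10.20 and 10.22 in BHBH pools 1 to 4. In the BHBL pools of the same pairs its levels were 12.67, 15.52, 14.34 and 12.14. Every BHBH pool lay below every BHBL pool, and BHBL pools 2 and 3 were the high ones. The ratios were -2.04, -3.87, -4.14 and -1.92 in pairs 1 to 4, with a mean of -2.99 ± 1.18 (SD, n = 4 pairs). Before normalisation, the LAP spot on slide 289 read intensities of 7417, 54995, 27699 and 5642 in the BHBL channel against 1259, 3767, 1064 and 1209 in the BHBH channel. LAP stood at rank 20 from the lowest among the mean ratios of all features.

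TAP, the tracheal antimicrobial peptide, had levels of 10.40, 11.23, 10.41 and 10.54 in the BHBH pools. Its levels in the BHBL pools were 11.81, 14.73, 13.42 and 12.57. The groups did not overlap here either, and pool 2 was the highest in both groups. The ratios were -1.42, -3.50, -3.02 and -2.03, with a mean of -2.49 ± 0.94 (SD, n = 4 pairs) and rank 41. LAP and TAP are related genes, and probe sequences were not used here, so how far a probe reads the RNA of the other gene was not tested. The LAP ratio minus the TAP ratio was -0.62, -0.37, -1.13 and 0.11 in pairs 1 to 4, a mean difference of -0.50 ± 0.52 (SD) that is smaller than its spread.

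S100A8, a subunit of calprotectin, had levels of 8.83, 8.80, 7.77 and 9.00 in the BHBH pools. Its levels in the BHBL pools were 9.71, 12.39, 12.48 and 10.002. The BHBL pools thus fell into a high pair of values (pools 2 and 3) and a low one (pools 1 and 4), all above BHBH. The ratios were -0.87, -3.59, -4.70 and -1.01, with a mean of -2.54 ± 1.91 (SD, n = 4 pairs) and rank 36. In BHBH pool 3 the spot read only 1.5 and 1.31 times the background limit on the slides, so that the ratio of pair 3 rests on a dim signal. Without pair 3 the mean ratio was -1.82.

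S100A9, the partner subunit, had levels of 10.89, 10.24, 8.92 and 10.26 in the BHBH pools. Its levels in the BHBL pools were 11.31, 13.45, 13.48 and 11.62. Groups did not overlap, and the same BHBL pools 2 and 3 were high as for S100A8. The ratios were -0.41, -3.21, -4.55 and -1.36, with a mean of -2.38 ± 1.85 (SD, n = 4 pairs) and rank 55. The mean ratio was -1.66 without pair 3 and -3.04 without pair 1. The ratios of the calprotectin subunits differed from each other by -0.46, -0.38, -0.15 and 0.35 (S100A8 minus S100A9), a mean of -0.16 ± 0.37 (SD).

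LTF, lactoferrin, had levels of 9.87, 12.04, 10.64 and 10.76 in the BHBH pools. Its levels in the BHBL pools were 10.50, 15.98, 11.96 and 13.73. Here the groups overlapped, because BHBL pool 1 lay below BHBH pools 2, 3 and 4, and BHBL pool 3 lay just below BHBH pool 2. The ratios were -0.63, -3.94, -1.32 and -2.96, with a mean of -2.21 ± 1.51 (SD, n = 4 pairs) and rank 71. The spot of BHBL pool 2 read intensities of 61039 and 65113, close to the upper end of the scanner's range, which can understate it. LTF differed most in pairs 2 and 4, the calprotectin genes in pairs 2 and 3. The LTF ratio minus the S100A8 ratio was 3.38 in pair 3 and -1.96 in pair 4.

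**Figure D1:**
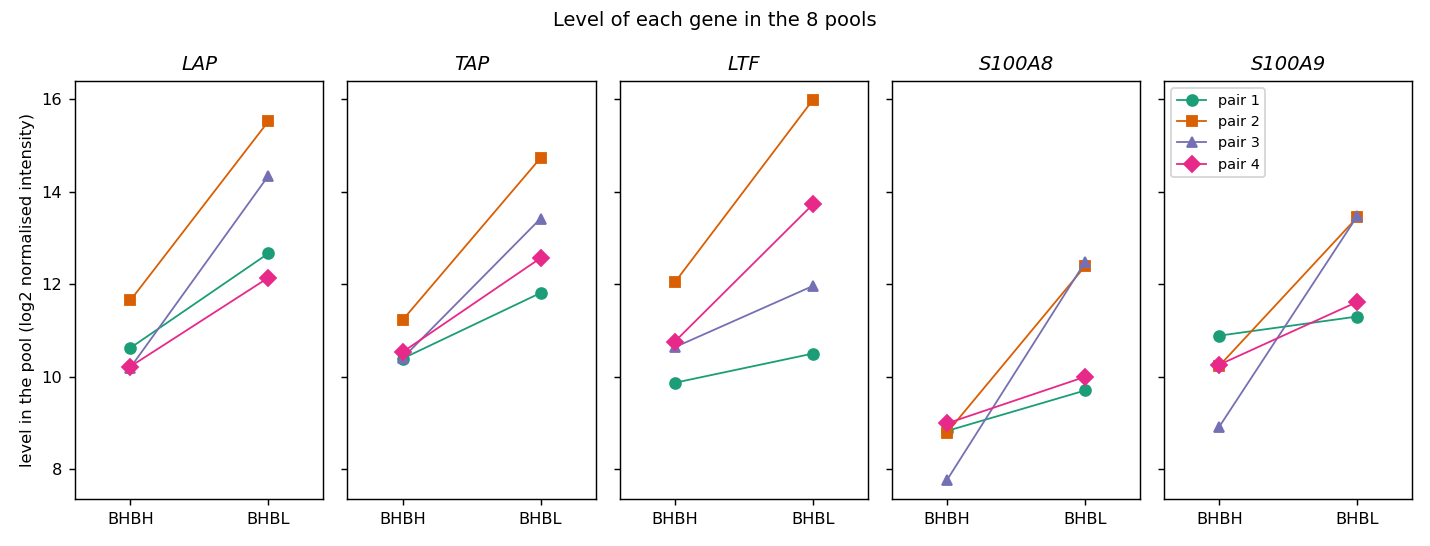
Level of each gene (log2 normalised intensity, vertical axis) in the 4 BHBH and 4 BHBL pools, 1 panel per gene, each line joining the pools of a pair and each point being the mean of 2 arrays. Every line rises from BHBH to BHBL, LTF is the panel in which the groups overlap, and levels are not comparable between panels.

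For 4 of the 5 genes, all but LTF, every BHBH pool lay below every BHBL pool, which 1.57% of all features also showed. The same 4 genes were separated on each slide alone, where dye and group cannot be told apart and 1495 (slide 289) and 2516 (slide 288) of all features were separated in this direction, against 509 with both slides. Only LAP and TAP, 2 of the 5 genes, were at least 2-fold lower in every pair, against 0.173% of all features. Since the genes had been chosen by this comparison, nothing is read from these shares. Of the 32448 features, 0% passed limma on the 4 pair means at an adjusted p under 0.05, with 1654 features at an unadjusted p under 0.05 and a smallest adjusted p of 0.405. With the 8 arrays fitted singly and the area number as a replicate block, 0.37% passed (114 lower and 6 higher in BHBH). The fold changes of the 5 genes accordingly stand as descriptions of these 8 pools.

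The ratios of these genes differed less between the dye-swapped arrays of a pair, which also lay on different slides, than between pairs. Between the 2 arrays of a pair, the LAP ratio differed by 0.10 to 0.41, while it ranged over 2.23 between pairs. For TAP the dye-swapped arrays differed by 0.21 to 0.73, against a range of 2.08 between pairs. For LTF they differed by 0.05 to 0.83, against 3.31. The calprotectin genes had the widest ranges between pairs, 3.83 for S100A8 and 4.14 for S100A9, and their swapped arrays differed by at most 0.32 and 0.55. Over all features the median difference between swapped arrays was 0.268 and the 95th percentile 0.933. The largest swap difference, 0.83 for LTF, was in pair 2, at -3.52 on slide 289 and -4.36 on slide 288. For LTF and S100A9 the ratios of pair 1 were small, and the swap difference was large beside them. There slides 289 and 288 gave -0.41 and -0.85 for LTF, and -0.60 and -0.23 for S100A9.

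**Figure D2:**
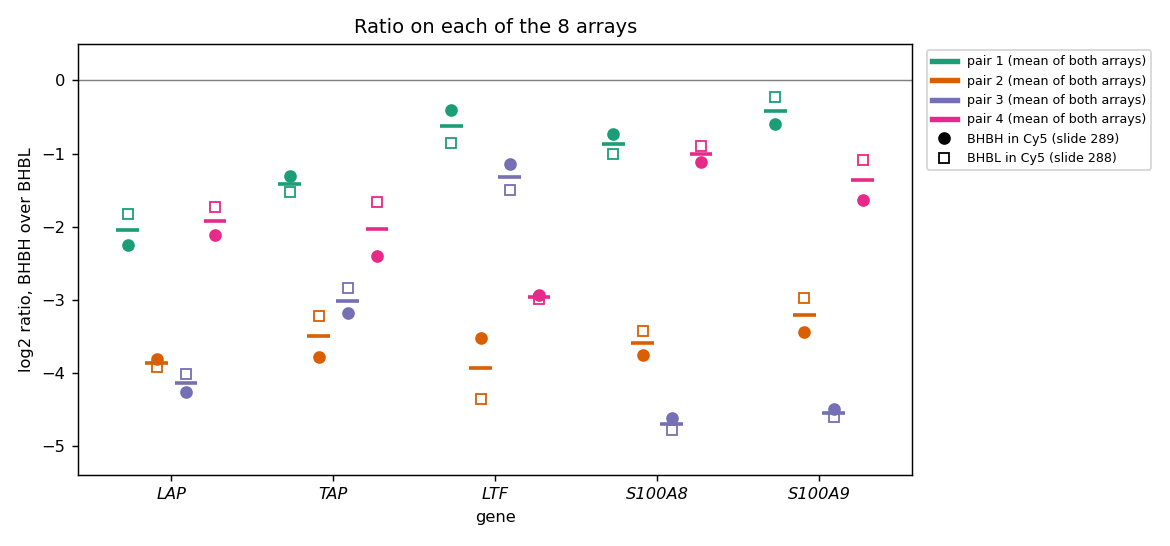
Log2 ratio of BHBH over BHBL (vertical axis) on each of the 8 arrays for the 5 genes, with filled circles for slide 289 (BHBH in Cy5), open squares for slide 288 (BHBL in Cy5) and a bar at the mean of each pair. All points lie below 0, and the arrays of a pair differ by at most 0.83, with LTF lowest in pair 2 and the calprotectin genes lowest in pair 3.

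The pools of both groups were spread, and more so those of BHBL. The SD over the 4 BHBL pools was 1.55 for LAP, 1.25 for TAP, 2.36 for LTF, 1.49 for S100A8 and 1.16 for S100A9. Over the BHBH pools the SD was 0.68, 0.40, 0.90, 0.56 and 0.83 in the same order. All 5 genes thus varied more among BHBL pools, while 49.9% of all features did so. Since the 5 genes had been chosen as lower in BHBH, nothing is read from this share. Among all features the median SD was 0.202 in BHBH and 0.199 in BHBL, so the genes were variable beside all features in both groups. Of all 32448 features, 19198 exceeded background on all arrays in both groups, as the 5 genes did. The spread of those features alone was not computed. Their SD lay between the 96.1 and 99.5 percentile of all features in BHBL and between the 78.0 percentile (TAP) and the 95.1 percentile (LTF) in BHBH.

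Across the 8 pools the levels of LAP and TAP correlated at r = 0.972 and those of S100A8 and S100A9 at r = 0.980. The defensins and the calprotectin genes correlated with each other at 0.907 to 0.942. LTF followed TAP (0.859) and LAP (0.751) more closely than S100A8 (0.676) and S100A9 (0.638). These coefficients describe 8 pools in 2 groups that share arrays by pairs, and they contain the group difference by which the genes were chosen.

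The named genes with levels most like those of the 5 included several of epithelial function. CXCL17, a mucosal chemokine, was among the 3 most alike for LAP (r = 0.978 over 8 pools), TAP (0.982) and S100A8 (0.973), with ratios of -1.30, -2.69, -2.72 and -1.03 in pairs 1 to 4. For TAP the others were TCN1 (0.980), the vitamin B12 carrier of secretions and neutrophil granules, and TMC5 (0.975). S100A9 was most like PPL (0.984), periplakin of the epithelial cell envelope, whose ratios were -1.27, -4.78, -6.23 and -1.05, and like SERINC2 (0.971) after S100A8. S100A8 was also like ESRP1 (0.972), a splicing factor of epithelial cells, whose mean ratio was -1.67 by its brightest probe but -0.08 by its other probes. LTF had its own companions, NTS (neurotensin, 0.975), EPHX1 (0.971) and OSMR (0.967). NTS gave ratios of -0.19, -5.05, -0.16 and -3.53, with large differences in pairs 2 and 4 as for LTF. It was picked for likeness to LTF over these same pools, so nothing is read from this. NTS was above background in BHBH on 5 of 8 arrays and in BHBL on 6. PAQR9 followed LAP at 0.978 but was above background in BHBH on 0 of 8 arrays.

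Other genes of host defence were taken from lists written by role, without the 5 genes. Medians over a list are set beside the median ratio of -0.01 over all 32448 features, of which 16801 lay below 0 and 15647 above. No gene of any list passed limma on the pair means. Of 11 other beta-defensins and cathelicidins measured, 6 lay below 0 and 5 above, and the list median was -0.06. DEFB4, matched to the defensin listed as DEFB4A, had ratios of 3.06, 1.15, 1.15 and -1.34 in pairs 1 to 4, a pattern opposite to LAP and TAP in the first 3 pairs. DEFB10 averaged -0.32 ± 0.21 (SE, n = 4 pairs) and DEFB7 -0.12 ± 0.14. Every SE given here and below is limma's moderated one. The cathelicidins CATHL3 (0.18 ± 0.09) and CATHL5 (0.34 ± 0.13), peptides that neutrophils store as precursors, lay slightly above 0. The rest of the family thus lay on both sides of 0, and 4 of the 11 genes were above background on all arrays.

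Of 14 other S100 genes, 11 lay below 0 and 3 above, with a median of -0.08. S100A12, a calgranulin of neutrophils whose gene lies between the calprotectin genes, gave 0.39, -0.98, -0.79 and -0.24, with a mean of -0.41 ± 0.25 (SE). S100A2, an S100 protein of epithelia, gave 0.37, -2.60, -2.43 and -1.28, with a mean of -1.48 ± 0.54 (SE). S100A14, another epithelial member, averaged -0.79 ± 0.38 (SE) by its brighter probe and -0.14 by another probe. Pairs 2 and 3, in which calprotectin differed most, were also the pairs with the largest negative ratios of these 3 genes. S100A4, found in motile cells, ran otherwise at 2.69, 0.85, 1.30 and -2.96. S100A7 averaged -0.05 ± 0.11 (SE).

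Among 34 other secreted proteins of mucosal defence, 22 lay below 0 and 12 above, with a median of -0.29 (-0.63 without pair 1 and -0.13 without pair 2). On the pair means 0 of them passed. With the replicate block, which counts dye-swapped arrays partly as separate replicates, 4 passed as lower in BHBH, against 114 of all 32448 features. These 4 were WFDC2, MUC1, PI3 and LPO. WFDC2, a secreted protein with whey acidic protein domains, was the steadiest, with ratios of -2.65, -2.98, -2.83 and -2.20 (mean -2.67 ± 0.15 SE, limma adjusted p = 0.405 on the pair means). MUC1, a membrane mucin, gave -2.40, -3.78, -4.30 and -2.08. LPO, lactoperoxidase, which makes antimicrobial oxidants in milk and airway fluid, gave -1.93, -4.40, -4.04 and -0.95 (mean -2.83 ± 0.66 SE, limma adjusted p = 0.919 on the pair means and 0.0277 with the block). PIGR, which carries antibodies across epithelia, gave -0.27, -4.80, -2.80 and -1.88. Like LTF and TAP, PIGR had its smallest difference in pair 1 and its largest in pair 2. SLPI, a protease inhibitor of secretions, averaged -1.14 ± 0.29 (SE), but another of its probes read 0.02.

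Some proteins of the granules or fluids that hold lactoferrin were higher in BHBH in pair 1. LCN2, which binds bacterial iron carriers, gave 2.17, -1.21, -0.56 and -0.24 and was above background in BHBH on 3 of 8 arrays. LYZ, lysozyme, gave 2.82, -2.83, -2.23 and -1.12. The acute-phase genes HP and SAA3 gave 1.80 and 0.70 in pair 1, and SAA3 gave -3.15 in pair 2. All 5 chosen genes were lower in BHBH in pair 1, where these 4 were higher. Among antibacterial proteins of neutrophil granules, BPI averaged -0.43 ± 0.11 (SE) and lay below 0 in all 4 pairs, and PGLYRP1 averaged -0.14 ± 0.09.

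**Figure D3:**
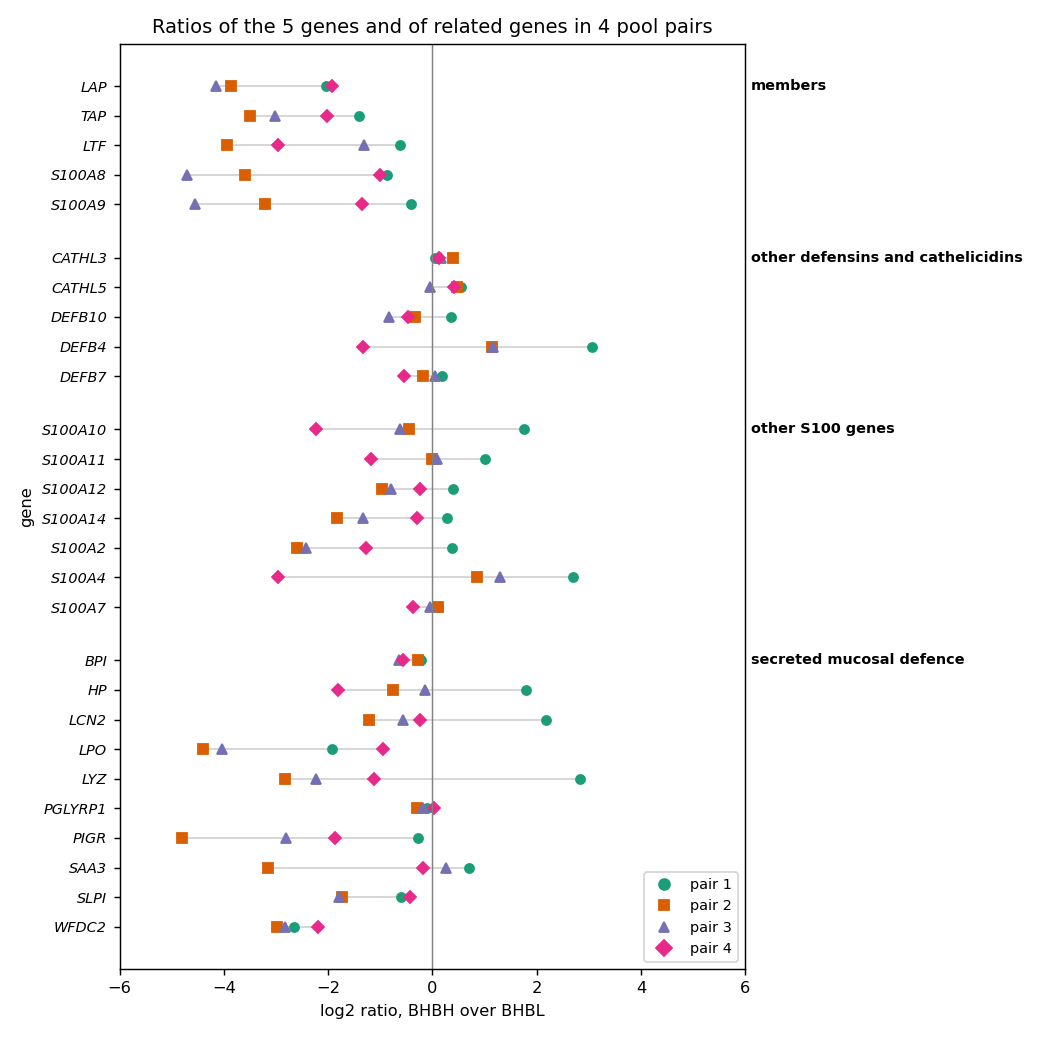
Log2 ratio of BHBH over BHBL (horizontal axis) in pool pairs 1 to 4 (symbols) for the 5 genes, labelled members, and for related defensins and cathelicidins, S100 genes and secreted proteins, with a grey line over the range of each gene. The 5 genes and WFDC2, SLPI, LPO, PIGR and BPI lie below 0 in all pairs, while DEFB4, LCN2 and LYZ lie far above 0 in pair 1.

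Genes that sense microbes or induce antimicrobial genes had a median of -0.04 over 37 measured, 24 below and 13 above 0. TLR2, a receptor of bacterial lipoproteins, gave 2.0, 0.84, 1.26 and -2.87, and CD14, a coreceptor of endotoxin, gave 2.95, 1.46, 1.25 and -3.46. TLR4 gave 0.45, -0.23, 0.15 and -1.19. Neither TLR2 nor CD14 followed the 5 genes, being higher in BHBH in pairs 1 to 3. NFKBIZ, a cofactor that NF-kB needs at several antimicrobial genes, gave 0.57, -2.68, -1.20 and -0.28 (mean -0.90 ± 0.55 SE). IL1B, a cytokine that induces epithelial defensins, gave 1.83, -0.25, -0.80 and -0.84. The adaptor MYD88 averaged -0.04 ± 0.25 (SE) and STAT3 -0.06 ± 0.38.

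Receptors of these proteins had a median of 0.03 over 9 measured, 4 below and 5 above 0. AGER and BSG, receptors reported for S100 proteins, averaged 0.11 ± 0.09 and -0.22 ± 0.10 (SE). CCR6, a chemokine receptor that beta-defensins can engage in humans, averaged -0.06 ± 0.08 and exceeded background in BHBH on 3 of 8 arrays and in BHBL on 4. TFRC, the transferrin receptor, which serves the iron uptake of cells, averaged 0.04 ± 0.16. ITLN2 was singled out after its values were seen, and its match to the intelectin listed as ITLN1, a lactoferrin receptor in humans, is uncertain, since more than 1 gene record has this synonym. It lay farther from 0 at -0.91, 0.07, -2.05 and -2.50. ITLN2 exceeded background in BHBH on 3 of 8 arrays and in BHBL on 6, and its other probes averaged -0.30.

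Markers of the cells known to make these proteins were set beside them. Of 19 neutrophil markers, 10 lay below 0 and 9 above, with a median of -0.06. Their mean level ranged from 7.68 to 8.41 over the BHBH pools and from 7.61 to 8.53 over the BHBL pools. MPO, myeloperoxidase, exceeded background in BHBH on 2 of 8 arrays and in BHBL on 3, and ELANE, neutrophil elastase, on 5 and 4. CXCR2, the neutrophil chemokine receptor that the array lists as IL8RB, gave 2.79, -1.07, -2.44 and -0.44, with its other probes at a mean of 0.14. MMP9, a gelatinase of neutrophil granules that other cells also make, gave 0.27, 3.67, 2.10 and -0.25, and so was higher in BHBH in the pairs where calprotectin was lowest.

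Most simple epithelial markers lay lower in BHBH, some of them only slightly. Of 19 simple epithelial markers, 18 lay below 0 and 1 above, with a median of -0.96 (-0.53 without pair 2), and their mean level ranged from 8.29 to 9.06 over the BHBH pools and from 9.13 to 10.67 over the BHBL pools, without overlap. Of these 19, 0 passed on the pair means and 5 passed as lower with the replicate block, against 0 and 114 of all 32448 features. At least 2-fold lower in every pair were 4, against 0.173% of all features. Lower on all 8 arrays were 8, against 1.91%. The lists were chosen with earlier results known, so nothing is read from these shares. EPCAM, an epithelial adhesion protein, gave -0.98, -5.20, -3.97 and -1.91 by its brightest probe, while its other probes averaged 0.01. KRT7, a keratin of glandular epithelium, gave -2.44, -3.11, -3.68 and -1.42. CLDN4, a tight junction protein, gave -2.84, -3.86, -4.75 and -2.30. KRT19 gave 0.20, -2.81, -4.31 and -1.84. Others of the list lay close to 0. CDH1 averaged -0.14 and exceeded background in BHBH on 3 of 8 arrays, and ST14 and FOXJ1 each averaged -0.01. KRT8 and KRT18, keratins that granulosa cells can also carry, stood apart with 3.98 and 3.74 in pair 1 but with negative ratios in pairs 2 to 4. The part of epithelial cells in the ratios of the 5 genes was not tested.

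Of 15 markers of stratified squamous epithelium, 11 lay below 0 and 4 above, with a median of -0.19 (-0.55 on slide 288 alone, -0.11 without pair 2), and mean levels overlapped between BHBH (7.54 to 8.06) and BHBL (7.84 to 9.19). KRT13 gave -2.87, -4.41, -4.43 and -0.82 and KRT4 gave -2.41, -4.76, -5.10 and -0.24, both keratins of moist squamous linings. The basal keratins lay nearer 0. KRT14 averaged -0.51 ± 0.18 (SE), and KRT5, which exceeded background in BHBH on 3 of 8 arrays and in BHBL on 4, gave -0.03, -1.79, -0.51 and 0.11. TP63, the transcription factor of basal cells, averaged 0.05 ± 0.11.

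Lists of other cell types also lay below 0. Of 11 theca and stroma markers, 10 lay below 0, with a median of -0.30 (-0.94 without pair 1 and -0.16 without pair 4). Of 15 lymphocyte markers, 13 lay below 0, with a median of -0.30 that was 0.20 without pair 4. Of 6 red cell markers, 5 lay below 0, with a median of -0.34 that was 0.10 without pair 2. HBB, beta-globin, gave 4.10, -4.98, -3.89 and 0.43, and so was lowest relative to BHBL in the pairs where calprotectin differed most. The part of these cells in the ratios of the 5 genes was not tested either.

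Macrophage markers followed another order of pairs than the 5 genes. The median of the 15 markers was 1.39, 0.86, 1.15 and -3.01 in pairs 1 to 4, and CD163, a scavenger receptor of macrophages, gave 0.85, 2.31, 1.67 and -4.72. Granulosa markers had mean levels of 11.76 to 12.20 in BHBH and 11.46 to 12.23 in BHBL, with 5 of 20 below 0 and 15 above and a median of 0.12. FSHR, the receptor of follicle-stimulating hormone on granulosa cells, gave -1.55, 1.27, -0.45 and 1.99. CYP19A1, the aromatase that makes oestradiol, averaged -0.21 ± 0.55 (SE), with its other probes at 0.39. Granulosa marker levels thus overlapped between the groups.

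**Figure D4:**
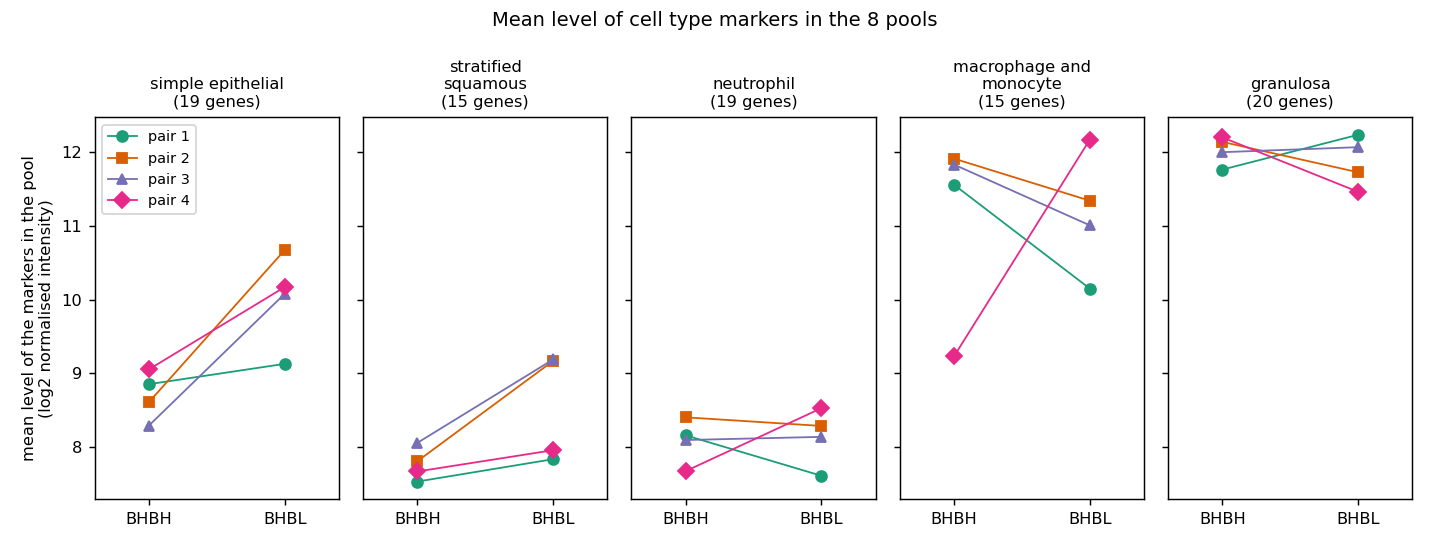
Mean level of cell type markers (log2 normalised intensity, vertical axis) in the BHBH and BHBL pools, 1 panel per marker list, each line joining the pools of a pair. Simple epithelial markers lie lower in every BHBH pool than in any BHBL pool, neutrophil markers cross, macrophage markers reverse in pair 4, and granulosa markers stay between 11.46 and 12.23.

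The submitters' own log2 ratios gave the same directions. In the authors' deposited values, the pair means were -2.00, -3.93, -3.79 and -1.67 for LAP and -1.52, -3.67, -3.01 and -1.88 for TAP. For LTF they were -0.60, -3.82, -1.19 and -2.73. For S100A8 they were -0.77, -3.34, -4.49 and -0.82, and for S100A9 -0.33, -3.34, -4.19 and -1.20. The order of the pairs was as in the ratios computed here for LTF, S100A8 and S100A9 and for TAP, while for LAP the lowest pair was pair 2 in place of pair 3.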

How the data were processed

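RNA of 8 pools was measured on 8 two-colour arrays. The deposited scanner files hold intensity per spot (foreground and local background, Cy3 and Cy5), per the file headers. The authors also deposited log2 ratios for all arrays. Limma is named in the submitters' processing notes, with no version; the scanner software and the background correction are, in the sources used here, not given. In R 4.3.3 with limma 3.58.1, median intensities were corrected by normexp (offset 50) and normalised by loess with controls at weight 0. Using the dye labels, ratios were oriented as BHBH over BHBL, and the 2 arrays of an area were averaged. One title that reads area1.2 was taken as area 1. Levels are channel values after loess and Aquantile. A probe was kept if it exceeded the mean plus 2 SD of 153 negative controls on 4 or more of 8 arrays in Cy3 or Cy5, and the brightest kept probe stands for a gene.

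The 4 pair means were tested against 0 with limma (lmFit, eBayes) with Benjamini-Hochberg adjustment over 32448 features. The SE of a gene is the moderated one of this fit, which borrows from all features. For genes that vary much between pairs it is smaller than the SE of their 4 values alone. SDs are those of the 4 values. These p-values rest on the spread between pair means, which holds differences between pools together with array noise. Those of the replicate block (consensus correlation 0.393) count dye-swapped arrays of the same pools partly as separate replicates. After removal of slide means, arrays of the same area correlated across features at 0.842 to 0.892, so the area number was taken to pair the arrays. The steps were tested on simulated data. The members and lists were chosen with earlier results of these data known. Named are all 5 members, some of the list genes marked by role, and the 3 genes most like each member by Pearson correlation over 8 pools. PI3, MUC1, ITLN2, CEACAM8, CHI3L1 and OLFM4 were singled out after their values were seen. Older symbols were matched through the synonyms of the RefSeq gene table. The alternatives changed normalisation, background, the filter, the source of ratios (the authors' own), the probe rule, single slides, blocks and each pair left out.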

Additional observations from a re-analysis of the deposited data

Results flagged for a closer look

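In 6 of 96 groups of 4 values examined, 1 value lay far from the other 3 by Dixon's criterion, which chance gives in about 1 of 20 groups. No explanation was tested for any of them. The TAP level in BHBH pool 2 was 11.228, above 10.396 to 10.537 in the other BHBH pools. The S100A8 level in BHBH pool 3 was 7.7748, below 8.7973 to 8.996 in the others. The median ratio of the macrophage and monocyte markers was -3.0066 in pair 4, against 0.856 to 1.39 in the other pairs, and within that list CSF1R, the receptor of macrophage colony-stimulating factor, was at -2.1375 in pair 4, against 1.35 to 1.55. The median of the stratified squamous markers was -0.63352 in pair 2, against -0.0768 to -5.16e-06 elsewhere. LBP, the endotoxin-binding protein, had a ratio of -1.8544 in pair 2, against -0.388 to -0.249 in the others.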

How the results depend on the processing

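The mean ratio of each of the 5 genes was below 0 under all 13 alternatives, from -3.35 to -2.61 for LAP, -2.85 to -2.15 for TAP, -2.74 to -1.64 for LTF, -3.10 to -1.82 for S100A8 and -3.04 to -1.66 for S100A9. Most alternatives could not change this sign. The blocks leave mean ratios as they are, and so do the filter and the probe rule for genes with 1 probe. As the 5 genes were below 0 on all 8 arrays, single slides and left-out pairs had to give negative means too. LAP, TAP, S100A8 and S100A9 had non-overlapping pools under all 9 alternatives for levels, and LTF under none. Leaving out a pair cannot make separated pools overlap. The number of features called was 120 with the replicate block and 97 with slide and replicate block, and 0 under the other 11 alternatives. The paired design is in every ratio already, since the pools of a pair share their arrays. Features at least 2-fold lower in every pair numbered 35 with the deposited log2 ratios and 58 to 224 with 1 pair left out, with 224 without pair 1 and 108 without pair 4, and 2 to 5 of the 5 genes met this with 1 pair left out, all 5 without pair 1. Non-overlapping features numbered 1495 on slide 289 alone, 2516 on slide 288 alone and 1096 to 2221 with 1 pair left out. On a single slide dye and group coincide, and with a pair left out fewer pools are compared; the cause was not tested. Below 0 under all 13 alternatives were 5 list medians. These were secreted mucosal proteins (-0.63 to -0.13), simple epithelial (-1.20 to -0.53), squamous (-0.55 to -0.11) and theca and stroma markers (-0.94 to -0.16). The fifth, other defensins, stayed close to 0 (-0.11 to -0.004). Medians of S100 genes, sensing genes and neutrophil, lymphocyte and red cell markers were below 0 under 12. Those of receptors were below 0 under 6, macrophage markers under 3 and granulosa markers under 0. With 4 pool pairs that differ by several log2 units, the mean ratios carry wide errors. LTF in BHBL pool 2 was near the top of the scanner's range, and S100A8 in BHBH pool 3 was near the background.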

Other observations

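All 5 genes, chosen as lower in BHBH, lay below 0 in every pair. Several other genes had ratios above 0 in pairs 1 to 3 and below 0 in pair 4, the same signs as the median of the macrophage markers. This group was put together after its values were seen, so it carries no test. CHI3L1, a chitinase-like protein of macrophages and stressed tissue, gave 5.20, 3.07, 2.94 and -4.56. DEFB4, S100A4, TLR2, CD14 and CSF1R, all described or named above, had the same signs. CHI3L1 averaged 1.66 ± 1.69 (moderated SE, n = 4 pairs) with an SD of 4.28 over the pairs, so that its mean was smaller than its error. OLFM4, a protein of neutrophil granules and crypt epithelium, gave 0.25, -1.02, -2.24 and -3.38 and had its lowest value in pair 4, where calprotectin differed less than in pairs 2 and 3. CEACAM8, a neutrophil adhesion protein, was the 1 neutrophil marker of 19 with non-overlapping pools, at -0.78, -1.12, -0.47 and -0.54. Of all features 1.57% were separated in this direction.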
